A study of Homo sapiens with 6 samples.

Results

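The set described here holds 10 genes of the 50868 in the expression table, taken by their symbols: the kallikreins KLK5, KLK6, KLK7, KLK8, KLK10 and KLK11, the membrane-bound serine proteases TMPRSS11E, TMPRSS4 and ST14, and the protease inhibitor SPINT1. All 10 were present in the table, and all 10 passed the filter on low counts. They were compared between B4G12 cells given a control small interfering RNA (siControl, 3 libraries) and B4G12 cells given small interfering RNA against NAMPT (siNAMPT, 3 libraries). B4G12 is an immortalised, clonal line labelled as human corneal endothelium, the cell layer that lines the back of the cornea, and both groups carry a wild-type genotype label and no drug or other agent. NAMPT is the rate-limiting enzyme of the salvage pathway that rebuilds NAD from nicotinamide. No source used here gives the sequence or dose of the interfering RNAs or the time of harvest. The labels name no separate cultures for the 3 libraries of a group, and the spread behind every p-value is that between these libraries alone, which may be technical.

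Kallikreins of this group are secreted serine proteases that are made as inactive precursors and switched on by cleavage, often by each other. In the outer epidermis they cut the junctions that hold dead cells together, and they can also cleave protease-activated receptors at the cell surface. Matriptase (ST14) and its relatives are anchored in the plasma membrane, where matriptase activates prostasin, growth factors and receptors, and Kunitz-type inhibitors such as SPINT1 hold it in check.

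The proteases of the set share the catalytic core of their family. The codons around their active site are shown because the residue at the base of the substrate pocket sets KLK7 apart from the others. Each line gives 30 bases of coding sequence from GENCODE 29 transcripts, 5′ to 3′. The first capitals mark the codon of the residue at the base of the substrate pocket, and the second capitals mark the codon of the catalytic serine, 6 codons further on.
KLK5: GACtcctgccagggtgatTCTggggggcct
KLK6: GATtcctgccagggtgatTCTgggggtccg
KLK7: AACgcctgcaatggtgacTCAgggggaccg
KLK8: GACacgtgccagggcgatTCTggaggcccc
KLK10: GACccttgccagagtgacTCTggaggcccc
KLK11: GACtcctgccagggtgacTCCgggggccct
TMPRSS11E: GATgcatgccagggtgacTCTggaggacca
TMPRSS4: GACacctgccagggtgacAGTggtgggccc
ST14: GACtcctgccagggtgatTCCgggggaccc
The pocket codon was GAC or GAT, both of which encode aspartate, in every protease shown except KLK7, where it was AAC, which encodes asparagine. Aspartate at this place goes with cleavage after lysine or arginine, as in trypsin, and KLK7 is known as the chymotrypsin-like member of the group. The serine codon was of the AGN kind in TMPRSS4 and of the TCN kind in the others. In-frame codons for the core of this stretch (aspartate, serine, glycine, glycine, proline) occurred in 106 of 20371 coding genes of the annotation, or 0.520%, and SPINT1, which is no protease, held none.

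The knockdown was visible in the targeted gene. NAMPT stood at 164, 170 and 184 CPM (counts scaled to a common library size) in the siControl libraries and at 26.7, 29.05 and 29.6 CPM in the siNAMPT libraries. It fell by 2.60 on the log2 scale (SE 0.07, adjusted p = 2.60e-06 in edgeR's quasi-likelihood test, Benjamini-Hochberg adjustment over all genes tested). Library totals ran from 19510796 to 22364717 counts, so that 3 counts, taken here as the limit that a count of 0 allows, corresponded to between 0.132 and 0.152 CPM. Of 15213 genes tested, 3161 were called higher and 3339 lower in siNAMPT at an adjusted p under 0.05.

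Of the 10 genes, 7 were called higher in siNAMPT, none lower, and 3 did not pass the test. Among all genes tested, 42.7% were called in either direction, 20.8% higher and 21.9% lower. None was called lower by edgeR at an unadjusted p under 0.05 either, nor by DESeq2. The libraries of the groups did not overlap for the same 7 genes, all with siNAMPT higher. Of all genes tested, 54.9% did not overlap in either direction and 27.2% did not overlap with siNAMPT higher. The 7 genes were KLK5, KLK6, KLK7, KLK8, TMPRSS11E, TMPRSS4 and SPINT1, with rises between 1.22-fold and 3.92-fold. The median log2 fold change was 0.46 over the 10 genes and 0.00 over all genes tested. The members were chosen with earlier results of these data known, so these shares and medians describe the set and do not test it. In bulk RNA, a change in the number of cells that express a gene and a change in RNA per cell cannot be told apart.

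**Figure D1:**
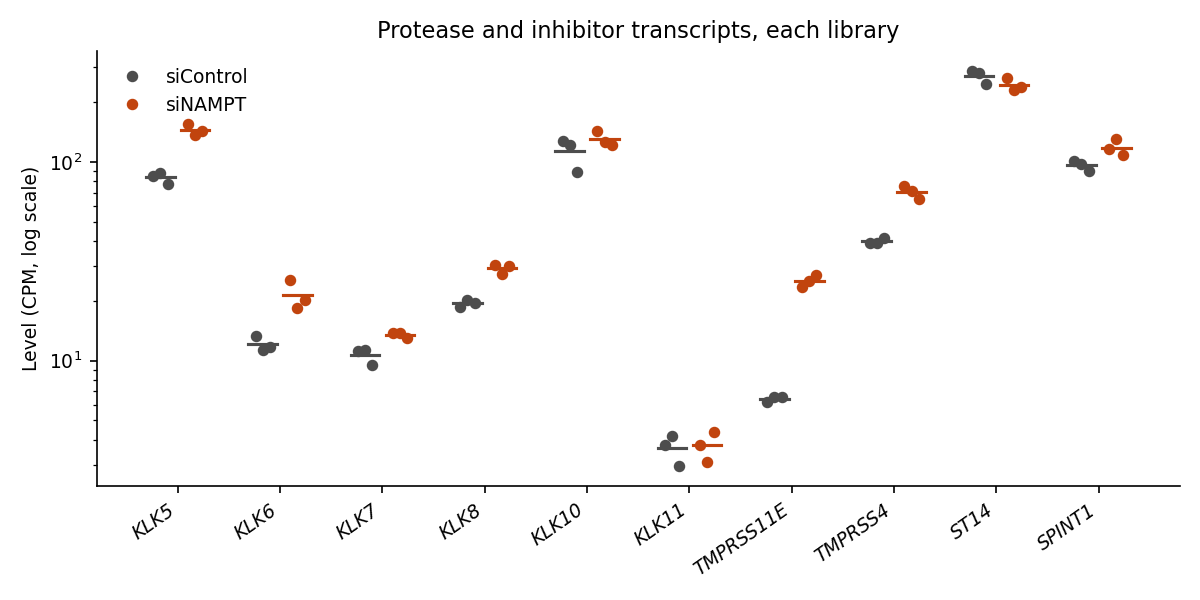
Level of each gene in each library, in CPM on a log scale, with siControl in grey, siNAMPT in orange and group means as short lines. The siNAMPT points lie above all siControl points for the 7 genes called higher, while the points of KLK10, KLK11 and ST14 overlap.

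KLK5, a trypsin-like kallikrein that can activate itself and other kallikreins, stood at 85.2, 87.9 and 77.7 CPM in siControl and at 155, 137 and 144 CPM in siNAMPT. All 3 siNAMPT libraries lay far above the siControl libraries. The rise was 1.74-fold (log2 0.80, SE 0.07, 95% interval 0.63 to 0.96, edgeR adjusted p = 1.77e-04). On the deposited FPKM scale, which also divides by gene length, KLK5 had a mean of 28.5 in siControl and 50.1 in siNAMPT. It was the member of highest FPKM in siNAMPT and ranked after ST14 in siControl.

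KLK6, known as neurosin and abundant in the nervous system as well as in some epithelia, measured 13.3, 11.4 and 11.7 CPM in siControl. In siNAMPT it measured 25.4, 18.5 and 20.1 CPM, with the first library standing above the other siNAMPT libraries. KLK6 rose 1.76-fold (log2 0.82, SE 0.14, edgeR adjusted p = 0.00276). KLK8, or neuropsin, a kallikrein of skin and hippocampus, had 18.6, 20.3 and 19.5 CPM in siControl against 30.5, 27.2 and 29.9 CPM in siNAMPT. The KLK8 libraries were tight within each group and well apart between them, and the rise was 1.5-fold (log2 0.59, SE 0.08, edgeR adjusted p = 9.98e-04).

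KLK7, the chymotryptic enzyme of the epidermis that cleaves corneodesmosin, had 11.2, 11.3 and 9.49 CPM in siControl and 13.8, 13.8 and 13.0 CPM in siNAMPT. The groups did not overlap, but the gap between the highest siControl and the lowest siNAMPT library was small. The rise of 1.26-fold (log2 0.34, SE 0.11) passed with an edgeR adjusted p of 0.0349. The call did not hold when any of the 6 libraries was left out, with adjusted p between 0.0566 and 0.0933 in edgeR, nor with DESeq2 (adjusted p = 0.0570) or without the filter on low counts (0.0712).

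KLK10, a kallikrein often silenced in breast cancer, was the other abundant member of the family, at 128, 122 and 89.4 CPM in siControl and 143, 127 and 122 CPM in siNAMPT. The third siControl library was low, and the groups overlapped. The log2 difference was 0.21 (95% interval −0.11 to 0.52, edgeR adjusted p = 0.257), and it was 0.06 without siControl replicate 3 and 0.30 without siControl replicate 1. KLK11, a trypsin-like kallikrein of skin and prostate, was the scarcest, with 3.76, 4.20 and 2.95 CPM in siControl and 3.78, 3.10 and 4.36 CPM in siNAMPT. Its libraries were interleaved, and its log2 difference of 0.05 had an interval of −0.40 to 0.49 (edgeR adjusted p = 0.865), at 61 to 99 counts per library, and the direction turned to −0.08 without siControl replicate 3 and also without siNAMPT replicate 3.

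The summed level of the 6 kallikreins was 260, 257 and 211 CPM in siControl and 371, 326 and 334 CPM in siNAMPT. The lowest siNAMPT sum exceeded the highest siControl sum. KLK10 made up 46.4% ± 3.55 (SD, n = 3) of the counts of the 6 genes in siControl and 38.0% ± 1.19 in siNAMPT. KLK5 made up 34.6% ± 2.09 in siControl and 42.3% ± 0.801 in siNAMPT, and the gene with most counts was KLK10 in every siControl library and KLK5 in every siNAMPT library. These shares are not corrected for length: per length KLK5 was above KLK10 in both groups, with mean FPKM of 28.5 against 14.2 in siControl and 50.1 against 16.6 in siNAMPT. The lead was smaller in CPM per kb of the principal GENCODE 29 transcript, at 53.5 against 36.4 in siControl and 92.9 against 42.0 in siNAMPT. The ratio of KLK5 to KLK10 counts was 0.665, 0.720 and 0.870 in siControl and 1.08, 1.08 and 1.18 in siNAMPT. The ratio of KLK5 to KLK7 counts was 7.59, 7.76 and 8.19 in siControl and 11.2, 9.97 and 11.1 in siNAMPT. Both ratios were higher in every siNAMPT library, with an exact two-sided permutation p of 0.1, the smallest that 3 against 3 allows (0.1 after adjustment over 3 ratios).

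The 6 kallikreins lie close together on the minus strand of chromosome 19 (GRCh38), over 84.7 kb. In order of position, KLK5 (ENSG00000167754) occupies 50943303 to 50953093, KLK6 (ENSG00000167755) 50958631 to 50969673, and KLK7 (ENSG00000169035) 50976482 to 50984099. KLK8 (ENSG00000129455) follows at 50996007 to 51002711, KLK10 (ENSG00000129451) at 51012739 to 51020175, and KLK11 (ENSG00000167757) at 51022216 to 51028039. KLK9, between KLK8 and KLK10, had only 0 to 6 counts per library and was not tested. The table held 16 kallikrein genes, of which 8 were tested. The 4 called higher, KLK5 to KLK8, were neighbours at one end of the expressed stretch. None was called lower (median log2 fold change 0.27 over the 8). Over all genes tested, 20.8% were called higher and 21.9% lower. Without the 6 members, 2 kallikreins were tested and neither was called (median −0.05). Outside the set, KLK13 (1.63 and 1.78 CPM, log2 0.13, edgeR adjusted p = 0.663) and KLK1 (6 to 13 counts, log2 −0.23, adjusted p = 0.654) were not called. KLK2, KLK3, KLK4, KLK12 and KLK15 had 0 counts in all 6 libraries, which allows up to 0.152 CPM in the shallowest library.

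**Figure D2:**
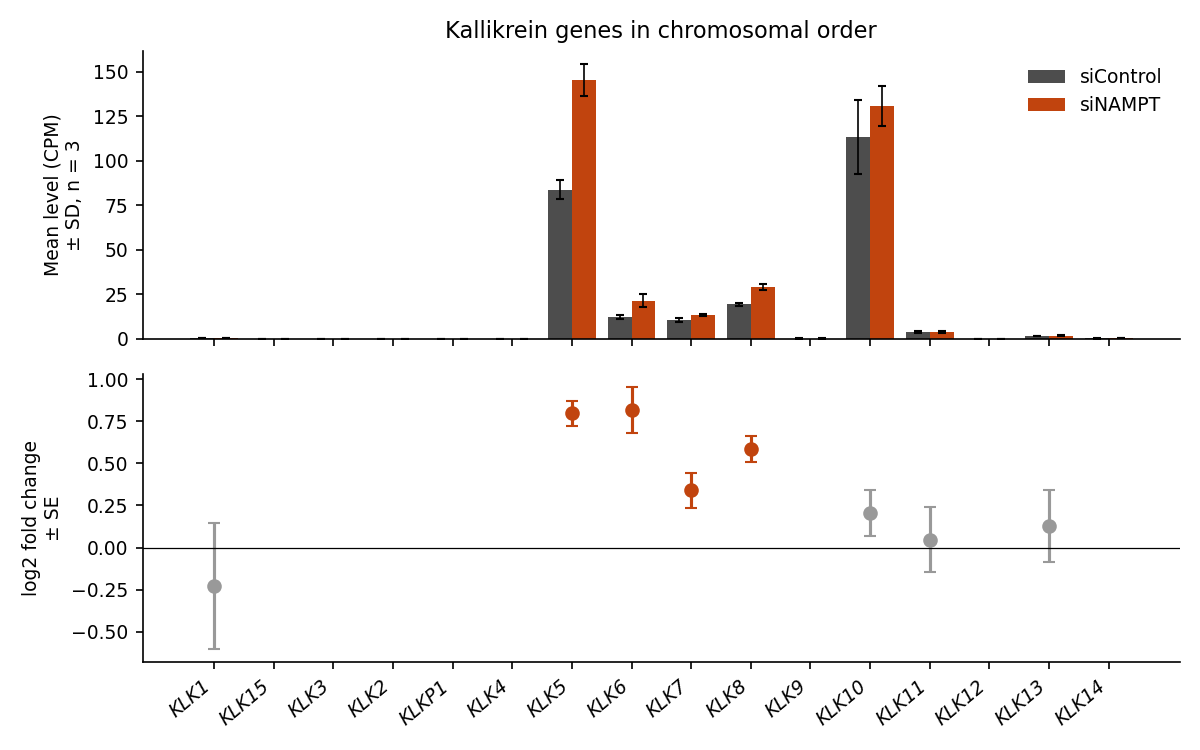
The 16 kallikrein genes in chromosomal order. The upper plot gives the mean CPM of each group (bars start at 0, error bars are the SD over 3 libraries), and the lower plot gives the log2 fold change with its SE for the 8 genes tested, in orange where called higher and grey where not called. KLK5 and KLK10 carry most of the signal, and the called genes are KLK5 to KLK8.

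TMPRSS11E, a transmembrane protease of stratified epithelia and the airway, changed most of the 10. It stood at 6.16, 6.56 and 6.54 CPM in siControl and at 23.5, 25.1 and 26.9 CPM in siNAMPT. Both groups were tight, and the siNAMPT libraries stood several times above the siControl libraries. The rise was 3.92-fold (log2 1.97, SE 0.09, 95% interval 1.75 to 2.19, edgeR adjusted p = 1.54e-05). The gene (ENSG00000087128) lies on the plus strand of chromosome 4 from 68447449 to 68497604, with 10 exons in its principal transcript. Its neighbours in the same family did not share a measurable level: TMPRSS11A, TMPRSS11B and TMPRSS11D had 0 counts in all 6 libraries, and TMPRSS11F had 0 to 2.

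TMPRSS4, a transmembrane protease raised in several carcinomas, had 39.2, 39.3 and 41.3 CPM in siControl and 75.8, 71.1 and 65.1 CPM in siNAMPT. The groups were clearly separate. TMPRSS4 rose 1.77-fold (log2 0.82, SE 0.08, edgeR adjusted p = 1.82e-04). Its locus (ENSG00000137648) is on the plus strand of chromosome 11, from 118077012 to 118121890, with 20 annotated transcripts. The ratio of counts to FPKM implies that the authors used a length of 19.2 kb for this gene, while its principal transcript in GENCODE 29 has 3.531 kb and its exons together cover 9948 bases. The FPKM of TMPRSS4, with means of 2.06 and 3.70, therefore places it lower among the members than its counts per kilobase of principal transcript, 11.3 and 20.0 CPM per kb. It ranked 8th by the first measure and 6th by the second in siControl. TMPRSS4 was not alone in this, as the implied length exceeded the joint exons of every member, to unequal degrees. For KLK11 it was 6.76 kb against 3113 bases, and for TMPRSS11E 2.40 kb against 2138 bases. The order of members by FPKM therefore depends on these lengths.

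ST14, which encodes matriptase, was the most abundant member in siControl by either measure per length. It had 289, 281 and 248 CPM in siControl and 265, 229 and 240 CPM in siNAMPT, and the groups overlapped. The log2 difference was −0.16 (95% interval −0.34 to 0.03, edgeR adjusted p = 0.152), an interval whose upper end lies below the rise of every called member. SPINT1, the Kunitz inhibitor of matriptase, had 102, 98.2 and 90.5 CPM in siControl and 116, 130 and 109 CPM in siNAMPT. All siNAMPT libraries were above the siControl libraries, by a narrow margin in the third. SPINT1 rose 1.22-fold (log2 0.29, SE 0.08, edgeR adjusted p = 0.0261). With siControl replicate 2 left out the call was lost (adjusted p = 0.0654), as it was on leaving out siControl replicate 3 (0.0790) or siNAMPT replicate 2 (0.0686).

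Counts of ST14 per count of SPINT1 numbered 2.84, 2.86 and 2.74 in siControl and 2.28, 1.77 and 2.21 in siNAMPT. This ratio of ST14 to SPINT1 was lower in every siNAMPT library. Its means were 2.81 ± 0.0679 in siControl and 2.09 ± 0.278 in siNAMPT (SD, n = 3 each). The exact two-sided permutation p was 0.1, the smallest possible, and 0.1 after adjustment over 3 ratios. It covers 1 inhibitor only: SPINT2, a close relative of SPINT1, had means of 200 CPM in siControl and 206 CPM in siNAMPT and was not called. ST14 (ENSG00000149418) lies on the plus strand of chromosome 11, from 130159562 to 130210376. SPINT1 (ENSG00000166145) lies on the plus strand of chromosome 15, from 40844018 to 40858207. The antisense gene SPINT1-AS1 overlaps it and had 109, 103 and 112 counts in siControl and 133, 102 and 117 in siNAMPT, against 1965 to 2578 for SPINT1. No source used here says whether counting used strand, so reads of this pair cannot be told apart.

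Levels between members were ordered per length, on both of the scales used here. By mean FPKM the order in siControl was ST14 (53.5), KLK5 (28.5), KLK10 (14.2), SPINT1 (12.9), KLK8 (4.67), KLK6 (3.38), TMPRSS11E (2.66), TMPRSS4 (2.06), KLK7 (1.85) and KLK11 (0.533). In siNAMPT, KLK5 (50.1) and ST14 (48.7) led, and TMPRSS11E (10.6) stood above KLK8 (7.10) and KLK6 (6.02), which had been above it in siControl. KLK10 (16.6) and SPINT1 (16.0) followed the leading pair in both groups, and TMPRSS4 (3.70), KLK7 (2.38) and KLK11 (0.557) stood at the end. By CPM per kb of principal transcript the place of TMPRSS11E was different: it was 10th in siControl, at 3.01, next to KLK11 at 3.03. In siNAMPT it was 8th on that scale, at 11.8, below KLK8 (22.1), TMPRSS4 (20.0) and KLK6 (12.5), so its move above KLK8 and KLK6 was seen on the FPKM scale only.

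The upstream sequence of 3 of the genes is shown because they were called higher in siNAMPT and their windows differ in composition and motifs. Windows from 250 bases before to 50 bases after the transcript start came from RefSeq on GRCh38.p14, and 7 of the 10 members matched, all but KLK8, TMPRSS4 and ST14. The 250 bases before the start are printed 5′ to 3′ on the gene's strand. Capitals mark matches to any of 5 motifs, searched on both strands and at any distance from the start. The motifs were TATAAA (the letters of a TATA box, wherever they lie), TGANTCA (bound by AP-1 factors), TGACNNNGC (the antioxidant response element), GGGCGG (the GC box) and AACCGGTT (bound by grainyhead-like factors). AP-1 and antioxidant motifs can share their first bases.
TMPRSS11E, chr4:68447213-68447462, plus strand: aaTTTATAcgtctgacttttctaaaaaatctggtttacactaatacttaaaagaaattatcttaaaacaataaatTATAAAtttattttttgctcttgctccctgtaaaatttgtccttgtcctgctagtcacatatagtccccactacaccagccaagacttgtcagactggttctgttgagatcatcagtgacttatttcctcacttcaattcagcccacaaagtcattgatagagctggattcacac
KLK5, chr19:50953039-50953288, minus strand: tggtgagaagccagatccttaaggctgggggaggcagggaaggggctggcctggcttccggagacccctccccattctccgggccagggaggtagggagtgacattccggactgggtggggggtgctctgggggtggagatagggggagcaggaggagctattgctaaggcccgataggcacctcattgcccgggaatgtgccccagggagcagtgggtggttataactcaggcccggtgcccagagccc
KLK6, chr19:50969592-50969841, minus strand: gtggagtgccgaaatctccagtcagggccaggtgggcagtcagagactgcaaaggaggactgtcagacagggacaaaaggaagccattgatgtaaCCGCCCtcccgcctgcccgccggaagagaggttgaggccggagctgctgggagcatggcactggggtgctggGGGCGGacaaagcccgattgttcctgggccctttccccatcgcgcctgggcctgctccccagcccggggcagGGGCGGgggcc
The TMPRSS11E window was rich in A and T, with a G and C content of 37.0% against a median of 58.7% over 35116 promoter windows, and held TATAAA or its reverse complement at −248 and −175. That motif was found in 11.5% of all windows and in 6.52% of the 15282 windows of tested genes. The KLK5 window, with 64.7% G and C, held none of the 5 motifs. The KLK6 window, with 66.3%, held GGGCGG in either orientation at −155, −83 and −11, a motif found in 45.0% of all windows and 65.0% of those of tested genes. Among members whose windows are not printed, SPINT1 held TGANTCA at −6 in a window, and KLK7 held TGACNNNGC in each window. SPINT1, KLK7 and KLK11 held GGGCGG, and KLK10 held none of the motifs. KLK10 and KLK11 were not called. Over all windows TGANTCA occurred in 7.71%, TGACNNNGC in 13.3% and AACCGGTT in 0.134%, and over those of tested genes in 5.53%, 14.6% and 0.196%. A match is a description of the letters and shows no binding.

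The word ACCATA, which earlier results of these data, not shown here, tied to lower transcripts, was looked for in annotated 3′ UTRs. It occurred in none of the 10 members, whose 3′ UTRs ran from 51 to 2061 bases, and in 22.4% of 12160 tested genes. Outside the set, among the tested genes of the 4 lists described next that have a 3′ UTR of at least 50 bases in the annotation, it occurred in 2 of 11 called lower (TMPRSS15 and F2R), 1 of 6 called higher (SCNN1A) and 0 of 11 not called. Because the word came from these same data, and members and lists were chosen with earlier results known, these counts describe the genes and test nothing. The share of 22.4% was not matched for 3′ UTR length. The part of this word in any result was not tested.

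A wider list held 23 transmembrane and membrane-anchored serine proteases, 3 of them members. Of these 23, 7 were tested: 4 were called higher, 1 lower and 2 not (median log2 fold change 0.51). Without the 3 members, 2 of 4 were called higher and 1 lower (median 0.35). All genes tested had 20.8% called higher and 21.9% lower. Prostasin (PRSS8), a membrane-anchored protease activated by matriptase, rose from 59.1, 57.4 and 50.2 CPM to 86.6, 73.8 and 76.9 CPM (log2 0.51, SE 0.09, edgeR adjusted p = 0.00357). Enteropeptidase (TMPRSS15), best known for activating trypsinogen in the gut, fell from 5.27, 5.94 and 5.11 CPM to 2.12, 2.996 and 2.25 CPM, a log2 change of −1.15 (SE 0.17, adjusted p = 0.00153). TMPRSS7, or matriptase-3, was scarce, at 0.235 to 0.461 CPM in siControl and 0.559 to 0.925 CPM in siNAMPT (log2 1.35, adjusted p = 0.0248). That call was lost with DESeq2 (adjusted p = 0.0796), and in edgeR when siControl replicate 1 (0.0789), siControl replicate 2 (0.0826), siNAMPT replicate 1 (0.0730) or siNAMPT replicate 3 (0.0781) was left out.

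Genes of the inhibitor list, which also holds an elastase inhibitor, went both ways. Of 20 listed genes 6 were tested, with 2 higher, 2 lower and 2 not called (median 0.17). Over all genes tested, 20.8% were called higher and 21.9% lower. Without the member SPINT1, 1 of 5 was called higher and 2 lower (median 0.04). SPINT1 and SPINK5 were called higher. PI3 and WFDC2, at 19 to 60 counts per library, were called lower. SPINT2, the close relative of SPINT1, had 206, 198 and 195 CPM in siControl and 225, 194 and 198 CPM in siNAMPT (log2 0.04, 95% interval −0.12 to 0.20, edgeR adjusted p = 0.639). SPINK5, which encodes the kallikrein inhibitor LEKTI, rose from 11.5, 11.9 and 11.01 CPM to 14.3, 13.5 and 17.8 CPM (log2 0.40, SE 0.12, adjusted p = 0.0324). The SPINK5 call was lost without each siControl library in turn (0.0789, 0.0683 and 0.0885), without siNAMPT replicate 3 (0.0887), without the count filter (0.0521) and with the replicate number as a block (0.0567). The elastase inhibitor elafin (PI3) fell from a mean of 2.03 to 0.993 CPM (log2 −1.03, adjusted p = 0.0244), and WFDC2 fell from 2.07 to 0.978 CPM (log2 −1.08, adjusted p = 0.00896). The PI3 call was lost without siControl replicate 1 (0.0642) and without each siNAMPT library (0.0736, 0.0535 and 0.0622), and no inhibitor was called higher without siControl replicate 2 or without siControl replicate 3.

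Among 29 receptors, substrates and partners of these proteases, 18 were tested, with 3 higher, 8 lower and 7 not called (median −0.16). The shares over all genes tested were 20.8% higher and 21.9% lower. F2RL1, the protease-activated receptor that trypsin-like kallikreins and matriptase can cleave, measured 53.5, 57.6 and 57.2 CPM in siControl and 51.8, 52.3 and 55.4 CPM in siNAMPT (log2 −0.08, 95% interval −0.23 to 0.07, edgeR adjusted p = 0.367). F2R, the thrombin receptor, fell from 30.3, 30.3 and 33.6 CPM to 14.1, 16.2 and 15.02 CPM (log2 −1.05, SE 0.09, adjusted p = 1.15e-04). The interleukin precursor IL1B fell from a mean of 155 to 64.4 CPM (log2 −1.27, adjusted p = 1.35e-05). The urokinase receptor PLAUR fell from 22.2 to 12.9 CPM (−0.78), filaggrin (FLG), a protein of the cornified layer, from 21.7 to 13.3 CPM (−0.71), and the matriptase substrate CDCP1 from 200 to 143 CPM (−0.48). MST1R (−0.34), MET (−0.26) and EPCAM (−0.21) fell by less.

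Among the higher genes of that list, progranulin (GRN), a secreted growth factor precursor, rose from a mean of 180 to 286 CPM (log2 0.67, edgeR adjusted p = 1.82e-04). The sodium channel subunit SCNN1A rose by 0.26 on the log2 scale (edgeR adjusted p = 0.0192). The SCNN1A call was lost without siControl replicate 2 (0.0595) and without siControl replicate 3 (0.0618), and 5 genes were called higher without siNAMPT replicate 2. EPCAM lost its call without siControl replicate 1 (0.0777), siControl replicate 3 (0.0629), siNAMPT replicate 1 (0.0534) or siNAMPT replicate 3 (0.0628). HGF, a ligand that matriptase can activate, and the junction protein DSG1 had 0 counts in all libraries, and the KLK7 substrate corneodesmosin (CDSN) reached at most 0.236 CPM.

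**Figure D3:**
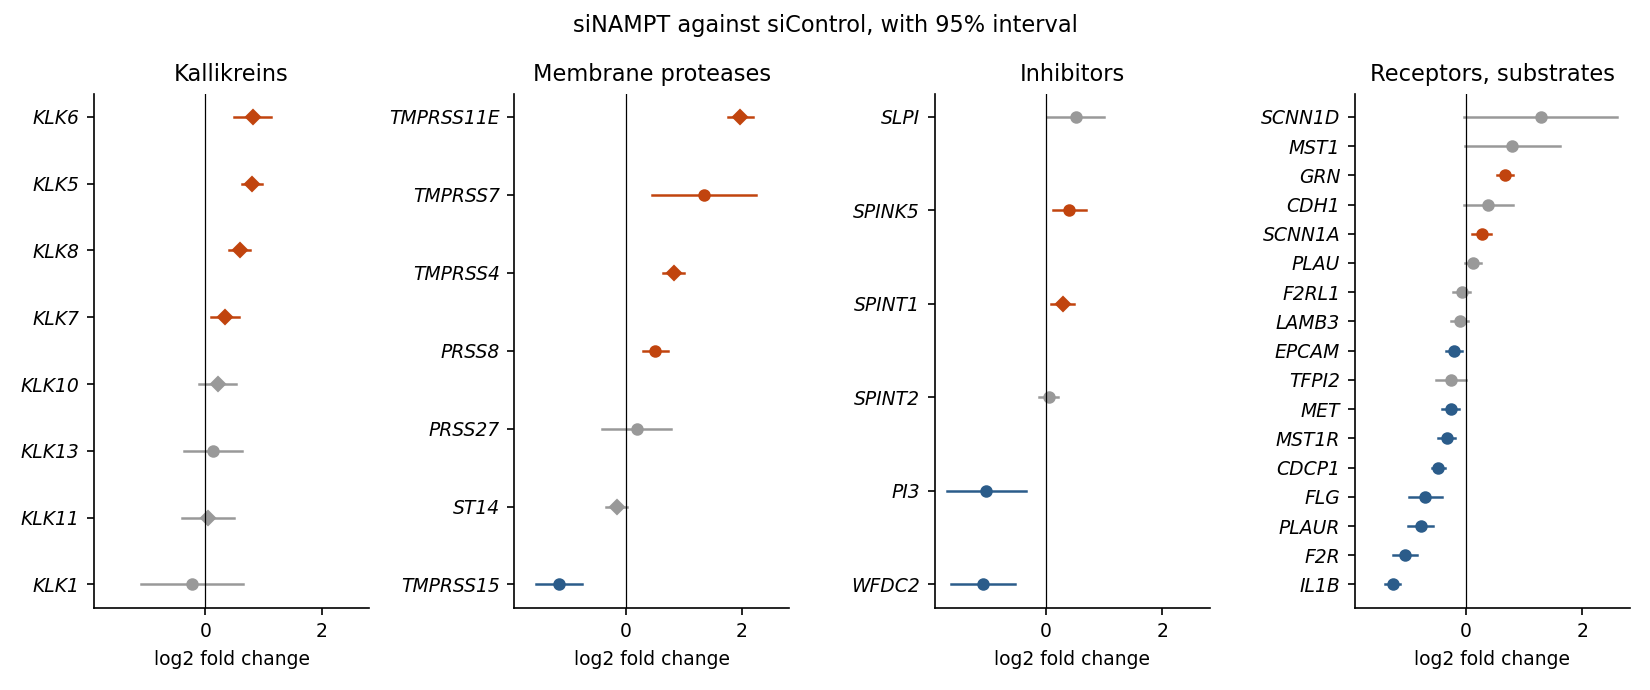
Log2 fold change with its 95% interval for the tested genes of the 4 lists except 1 that is not drawn, with diamonds for the 10 members and circles for other genes, orange for called higher, blue for called lower and grey for not called. Of the kallikreins, none was called lower. The receptors and substrates fall on both sides of 0, from IL1B at −1.27 to GRN at 0.67 among those drawn and called.

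The label of the cells was set against marker genes, since these proteases are typical of stratified epithelia. Calls of markers, here and in the next paragraph, stand beside 20.8% higher and 21.9% lower over all genes tested. Of 15 corneal endothelial markers 9 were tested, with 2 higher and 1 lower, and their summed level was 1494 to 1537 CPM in siControl and 1503 to 1612 CPM in siNAMPT. The endothelial transporter SLC4A11 was present, at means of 30.3 and 26.0 CPM, but COL8A2, ZP4 and NCAM1 reached at most 0.270 CPM and TFAP2B was at 0. Stratified epithelial markers were abundant: 13 of 15 were tested, 5 were higher and 3 lower, and their sum was 6002 to 6499 CPM in siControl and 6745 to 7634 CPM in siNAMPT. KRT5 had means of 1929 and 2292 CPM, TP63 67.4 and 97.3 CPM and GRHL2 78.6 and 138 CPM, all called higher. KRT14 (1600 and 1301 CPM), KRT6A (454 and 387 CPM) and EPCAM (139 and 120 CPM) were called lower, while the corneal epithelial keratin KRT12 was at 0. Of the keratinocyte differentiation markers, 5 were tested, with involucrin (IVL, 12.2 to 35.2 CPM, log2 1.53) and TGM1 higher and FLG lower, and sums of 70.2 to 75.5 and 89.6 to 98.4 CPM. The part of these epithelial markers in the protease changes was not tested.

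Markers of other cells were low. Stromal markers summed to 5.24 to 7.33 CPM in siControl and 8.33 to 9.60 CPM in siNAMPT (1 of 2 tested higher, DCN, with KERA at 0). Vascular endothelial markers summed to 9.59 to 11.3 and 13.3 to 15.3 CPM (1 of 2 tested higher, VWF, with KDR at 0). Leukocyte markers summed to 7.64 to 10.6 and 18.1 to 21.5 CPM, nearly all from CD68, the 1 gene tested and called higher, while PTPRC stood at most at 0.0900 CPM. Melanocyte markers summed to 1.46 to 2.08 and 1.76 to 2.79 CPM, with MLANA and TYR at 0 and PMEL not called.

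**Figure D4:**
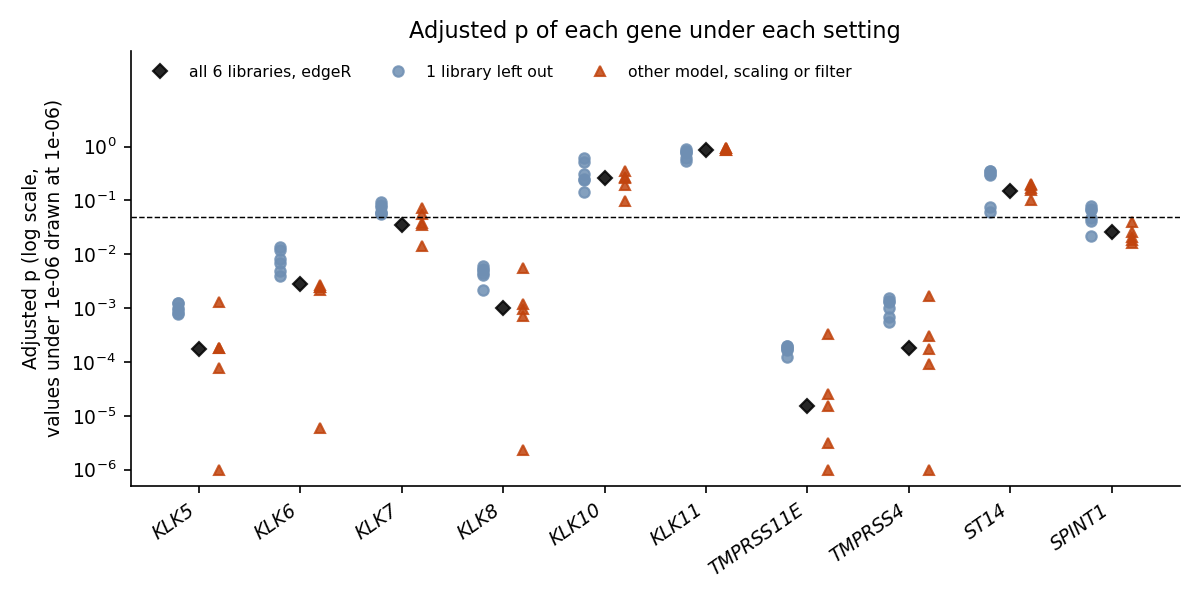
Adjusted p of each member on a log scale with all 6 libraries in edgeR (black), with 1 library left out (blue) and with another model, scaling or filter (orange), values under 1e-06 being drawn there and the dashed line marking 0.05. KLK5, KLK6, KLK8, TMPRSS11E and TMPRSS4 stay below the line throughout, KLK7 and SPINT1 have points on both sides, and KLK10, KLK11 and ST14 stay above it.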

How the data were processed

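The 6 libraries were mRNA sequenced as paired ends, per the labels' protocols. The authors deposited 1 table with whole-number counts and FPKM values per gene for each library. The builds GRCh38 and mm10 are named in the submitters' processing notes, without saying what mm10 was used for, and no source used here gives the aligner, counter, strand setting or FPKM tool. The coordinates of all 10 members equal those of GENCODE 29 on GRCh38.

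The count test was that of edgeR 4.0.16 (R 4.3.3), with filterByExpr, TMM scaling and a two-sided quasi-likelihood test on group alone over all 6 libraries, with Benjamini-Hochberg adjustment over 15213 genes and a threshold of 0.05. CPM were computed from the counts and TMM library sizes. The depth of 19510796 to 22364717 counts per library sets the counting precision. Fold changes are siNAMPT over siControl. Ratios of counts were compared by exact permutation in scipy 1.17.1. The code was checked on simulated counts.

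Alternatives were DESeq2 1.42.0, its size factors in edgeR, no count filter, limma 3.58.1 on log2(FPKM + 1) where 3 or more libraries reached an FPKM of 1, a block for replicate number, and omission of each library in turn. Members and lists were chosen with earlier results of these data known. Named were NAMPT, the members, tested genes of the lists (called ones first), marker genes, and the 3 genes most like TMPRSS11E. The keratinocyte marker LOR found no row under that symbol and was not analysed here. Some genes of the lists count in the totals but are not reported here by name. Members were named from their symbols, and promoter windows from RefSeq.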

Additional observations from a re-analysis of the deposited data

How the results depend on the processing

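The fold changes of NAMPT, the members and the called genes of the lists, and the counts of calls, were recomputed under 11 alternatives. Of 437 values, 391 kept their direction and their side of the threshold, or their count within 1.5 times, 32 fold changes lost the call, 12 counts moved and 2 fold changes reversed. KLK5, KLK6, KLK8, TMPRSS11E and TMPRSS4 kept their calls in all 11. Members called higher numbered 6 with DESeq2, 6 without the count filter, 7 with limma on FPKM and 5 to 6 with 1 library left out, and none was called lower. KLK11 turned to −0.08 (−0.0838, the lowest with 1 library left out, the highest being 0.16) without siControl replicate 3 and to −0.08 (−0.0760) without siNAMPT replicate 3. On the log2(FPKM + 1) scale TMPRSS11E rose by 1.66, and KLK11 did not pass that filter.

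Same-numbered libraries deviated together with correlations of 0.0894, −0.000334 and 0.0713 and other pairs with −0.108 to 0.0446, so the numbers were not taken to pair the libraries. With the replicate block 7 members were called higher, and over all genes 3063 were called higher and 3273 lower. Inhibitors called higher numbered 1 with the replicate block, 1 without the count filter and 0 to 2 with 1 library left out. Inhibitors called lower numbered 1 with limma on FPKM and 1 to 2 with 1 library left out. Receptors and substrates called higher ranged from 2 to 5 with 1 library left out. KLK11 had only 61 to 99 counts per library, and its 95% interval was wider than that of the other members.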

Other observations

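The genes whose course over the 6 libraries was most like that of TMPRSS11E were TXNIP, HABP4 and FBXO32. Likeness was the root mean square difference of log2 CPM, each gene centred on its own mean, among 11083 genes with a mean of at least 5 CPM. The differences were 0.0822 for TXNIP, which binds thioredoxin and restrains glucose uptake, 0.0838 for the RNA-binding protein HABP4, and 0.0844 for the ubiquitin ligase subunit FBXO32. Since the 6 libraries form only 2 groups, this likeness mostly restates a rise of similar size. TXNIP rose from a mean of 85.0 to 316 CPM, HABP4 from 7.60 to 29 CPM and FBXO32 from 43.0 to 160 CPM.

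The gene AC011473.4 overlaps KLK8 on the same strand and had 15, 24 and 4 counts in siControl and 29, 19 and 11 in siNAMPT, against 395 to 679 for KLK8. How shared reads were counted is unknown. AC011483.3, on the same strand as KLK6 and overlapping it, had at most 1 count in a library. The genes annotated on the opposite strand of the kallikrein members and TMPRSS4 had 0 counts in all 6 libraries.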
